A study of Mus musculus with 7 samples.

Results

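The respiratory chain genes described here are the protein-coding genes that encode subunits of the 5 complexes of oxidative phosphorylation, taken by gene symbol from the deposited expression table. A symbol was included if it began with Nduf followed by a, b, c, s or v and a number, was Sdha, Sdhb, Sdhc or Sdhd, or began with Uqcr, Cox4 to Cox8, Atp5 or mt-. The rule found 97 of the 25461 genes of the table, of which 84 lie in the nuclear genome and 13, with the prefix mt-, in the mitochondrial genome. Complex I holds 38 nuclear and 7 mt- genes, complex II 4 nuclear genes, complex III 8 nuclear and 1 mt- gene, complex IV 17 nuclear and 3 mt- genes, and complex V 17 nuclear and 2 mt- genes.

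RNA was sequenced from whole mouse embryos of the strain B6C3F1 at embryonic day 11.5, with the tail removed for genotyping and 1 embryo in each library. There were 3 embryos labelled SLMAP3 knockout (KO) and 4 labelled wildtype (WT). SLMAP3 is a tail-anchored membrane protein, and the KO allele came from a floxed Slmap gene deleted with CMV-cre and then bred free of cre, so that it is absent from every tissue while shorter SLMAP isoforms can still be made. The KO embryos are KOAC8-6, KOAC10-5 and KOAC10-8 and the WT embryos KOAC8-1, KOAC10-7, KOAC9-1 and KOAC10-2, and values below follow this order. The labels do not explain the series number after KOAC. Values are FPKM (sequenced fragments counted on a gene, divided by transcript length and library depth), and estimated counts ran from 54200000 to 82000000 per embryo.

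Complexes I and II pass electrons from nutrients to a lipid carrier, complex III hands them to cytochrome c, and complex IV hands them to oxygen. Complexes I, III and IV pump protons across the inner mitochondrial membrane, and complex V, the ATP synthase, uses the returning protons to make ATP. The subunits of complex II are all encoded in the nucleus, whereas each other complex joins nuclear subunits, transcribed gene by gene, to mitochondrial ones that are cut from long shared transcripts.

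Promoters of 4 nuclear members are shown for the matches they hold to motifs of factors known to drive respiratory genes. Ndufa11, Ndufa8 and Ndufb8 are those with a match among the 7 nuclear members whose KO embryos all lay below the WT embryos, and Uqcr11 holds matches to 2 motifs. Ndufa1 and Ndufb1-ps, also among the 7, had a window without a match. The windows, from RefSeq on GRCm38.p6, run from 250 bases before to 50 bases after the start of the gene. They are chr17:56717512-56717811 on the plus strand, and chr2:36049289-36049588, chr19:44555393-44555692 and chr10:80406772-80407071 on the minus strand, each written 5′ to 3′ on the strand of its gene. Capitals mark matches on either strand to GCGCATGCG (NRF1), CCGGAAGT (ETS factors such as GABP) or AAGATGGC (YY1). In Ndufa11 the capitals hold an NRF1 match on each strand that overlap each other.
Ndufa11: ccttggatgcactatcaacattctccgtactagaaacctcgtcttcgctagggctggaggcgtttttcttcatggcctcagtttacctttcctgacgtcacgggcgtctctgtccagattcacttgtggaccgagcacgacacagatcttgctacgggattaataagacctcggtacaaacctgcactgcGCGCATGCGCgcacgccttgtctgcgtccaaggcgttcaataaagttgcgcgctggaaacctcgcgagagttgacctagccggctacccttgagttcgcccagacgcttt
Ndufa8: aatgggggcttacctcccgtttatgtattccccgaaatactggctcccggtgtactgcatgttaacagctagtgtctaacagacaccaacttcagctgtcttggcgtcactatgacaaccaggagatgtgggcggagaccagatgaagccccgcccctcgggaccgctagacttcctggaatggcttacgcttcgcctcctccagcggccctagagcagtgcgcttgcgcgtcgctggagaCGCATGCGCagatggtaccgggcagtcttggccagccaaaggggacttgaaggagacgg
Ndufb8: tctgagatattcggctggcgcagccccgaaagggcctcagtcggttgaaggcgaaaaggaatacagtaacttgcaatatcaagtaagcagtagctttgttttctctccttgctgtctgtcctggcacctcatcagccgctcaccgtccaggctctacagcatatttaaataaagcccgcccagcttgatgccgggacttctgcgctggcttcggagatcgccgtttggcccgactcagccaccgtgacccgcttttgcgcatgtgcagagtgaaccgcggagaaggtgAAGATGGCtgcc
Uqcr11: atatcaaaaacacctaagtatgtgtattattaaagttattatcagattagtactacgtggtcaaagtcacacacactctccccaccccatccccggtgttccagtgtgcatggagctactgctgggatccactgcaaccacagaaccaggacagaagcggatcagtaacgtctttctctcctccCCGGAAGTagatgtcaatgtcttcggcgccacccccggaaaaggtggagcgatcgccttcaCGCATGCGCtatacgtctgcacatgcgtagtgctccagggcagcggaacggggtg

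Of the 83 nuclear members with a mean of at least 1 FPKM, 68 had such a window. The NRF1 letters were in 8 of them (11.8%), against 3.98% of the 10668 windows of all tested protein-coding nuclear genes. The YY1 letters were in 10 (14.7%, against 5.01%) and the ETS letters in 5 (7.35%, against 8.6%). At least 1 of the 3 motifs was in 22 windows (32.4%, against 16.4%). Of the 10 windows with the YY1 letters, 7 belonged to complex I and 3 to complex V. These are matches of letters only.

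The Slmap gene (chr14:26413168-26534931, minus strand, GRCm38) was read first, as the targeted gene. It had 19.6, 16.0 and 16.6 FPKM in the KO embryos and 31.2, 23.9, 29.1 and 22.8 FPKM in the WT embryos. The groups did not overlap, with a log2 fold change of -0.59 ± 0.13 (SE; adjusted p = 0.278, limma). The two-sided exact permutation p was 0.0286, the smallest that the 35 arrangements of the embryos can give. A gene-level value sums all isoforms. No member of the respiratory chain set lies within 5 Mb of Slmap.

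With all genes fitted together, 0 of the 96 members tested passed an adjusted p of 0.05 in limma, where 0.0373% of the 16095 genes did, and the smallest adjusted p of a member was 0.286. At an unadjusted p under 0.05, 7 nuclear members were lower in KO embryos (Ndufa1, Ndufa11, Ndufb1-ps, Ndufb2, Ndufb9, Sdhc and Cox7b) and 2 were higher (Ndufa4l2 and Cox4i2). The 7 were 8.43% of the 83 nuclear members, beside 6.19% of all genes lower at that threshold, and the 2 were 2.41%, beside 5.27% of all genes higher. All 3 KO embryos lay below the 4 WT embryos in 7 nuclear members (8.43%, against 5.98% of all genes) and above them in 2 (2.41%, against 5.61%). These shares are near those of all genes. Cox7b2, a testis form of Cox7b, had 0 to 0.415 FPKM and was not tested.

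The nuclear members nevertheless shared a small downward shift. Their log2 fold change was negative in 70 of 83 (84.3%), with a median of -0.05, where 46.9% of all genes were negative and the median was 0.01. Members of one chain are not independent of each other, and embryos, not genes, are the replicates. The count was 16 of 17 in complex V (median -0.05), 34 of 38 in complex I (-0.06), 6 of 8 in complex III (-0.05), 12 of 16 in complex IV (-0.04) and 2 of 4 in complex II (-0.02). Within complex I the 7 nuclear core subunits, which carry the electrons, had a median of -0.03 and the 31 accessory subunits -0.07. In the mt- genes 9 of 13 were negative, with a median of -0.01, and 0 had an unadjusted p under 0.05. Leaving out 1 embryo moved this median from -0.17 (without KOAC10-8) to 0.10 (without KOAC8-6).

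**Figure D1:**
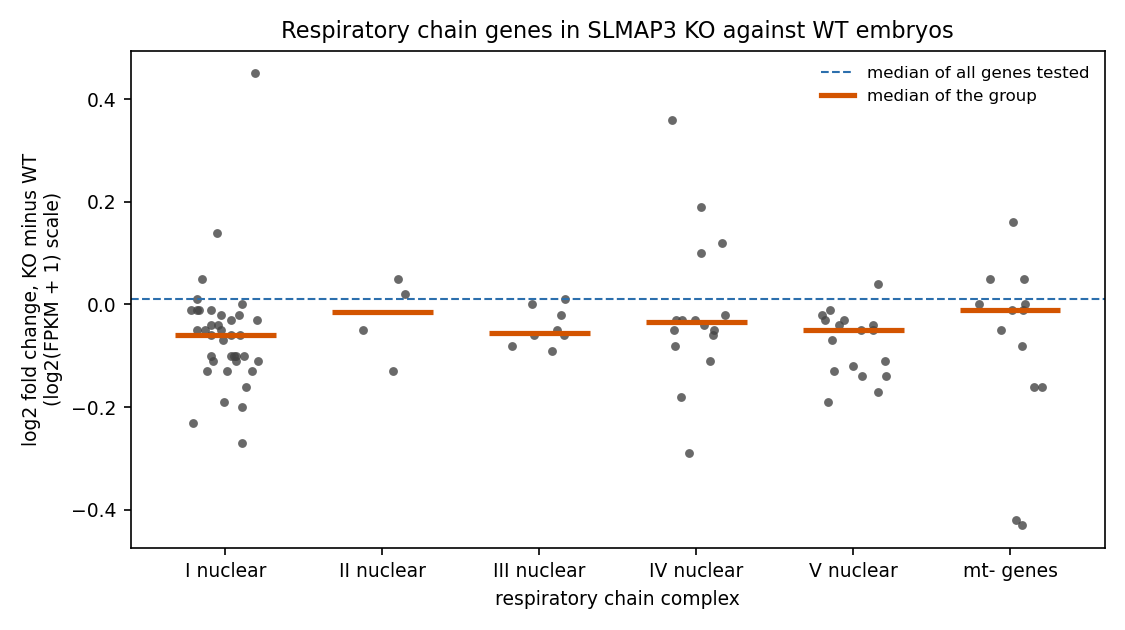
Log2 fold change (KO minus WT, log2(FPKM + 1) scale) of each tested nuclear member by complex, and of the 13 mt- genes. Points are genes, orange bars the group medians, and the dashed line the median of all genes; the nuclear medians lie between -0.06 and -0.02, and the 2 points highest among the nuclear genes are Ndufa4l2 and Cox4i2.

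The shift was not equal in the 3 KO embryos. The median deviation of the nuclear members from their mean over the embryos was -0.09 in KOAC8-6, -0.06 in KOAC10-5 and 0.06 in KOAC10-8, and 0.02, 0.01, 0.04 and 0.04 in the WT embryos. KOAC8-6 was the lowest of all embryos in 42 of 83 nuclear members, whereas KOAC10-8, also a KO, was the highest in 32. The KO embryos therefore lay on both sides of the WT embryos. Without KOAC8-6, 54 of 83 were negative and the median was -0.03, and only 1 member was lower at an unadjusted p under 0.05, beside 4.62% of all genes in that fit. Without KOAC10-8, 76 were negative, the median was -0.10 and 22 (26.5%) were lower at that threshold, beside 4.49% of all genes.

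Within series 8, which holds 1 KO and 1 WT embryo, 76 of 83 nuclear members were lower in the KO embryo, with a median of -0.12. Within series 10, with 2 of each, 51 of 83 were lower and the median was -0.02. Series 9 holds 1 WT embryo only.

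Transcript length moved with the shift. Most members are short, and the length that the FPKM scaling implies was under 700 bases in 56 nuclear members with at least 20 FPKM. Of these 52 were negative (median -0.07), against 16 of 22 longer members (median -0.02). All 7 nuclear members lower at an unadjusted p under 0.05 were among the 56 (12.5%), and 0 among the 22. The same held for the 7 with every KO embryo below the WT embryos. Other protein-coding genes within the same limits of length and FPKM were negative in 272 of 514 (52.9%; median -0.00). Of these 514, 8.37% were lower at that threshold and 8.56% had every KO embryo below the WT embryos. They were not matched by level, with a median of 85.2 FPKM against 196 FPKM in the 56 members. Their median deviation was -0.06, -0.06 and 0.11 in the KO embryos and -0.01 to 0.02 in the WT embryos. Taken by annotated length instead, with no minimum beyond 1 FPKM and with members included, 617 protein-coding genes had a longest transcript under 1000 bases. Of these 382 were negative (61.9%; median -0.04). At an unadjusted p under 0.05, 12.2% of them were lower, beside 6.74% of all protein-coding genes. The part that length has in the shift was not tested. In whole embryos, fewer cells of a type that is rich in mitochondria and less RNA per cell cannot be told apart.

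Some markers of other tissues also differed between the embryos. Of 7 markers of neural progenitors, 6 had a higher KO level at an unadjusted p under 0.05, beside 5.27% of all genes (median log2 fold change 0.44). Of 7 markers of neurons, 0 had an unadjusted p under 0.05 (median -0.09). Among 3 markers of primitive erythroid cells, 1 was lower at that threshold, beside 6.19% of all genes (median -0.12). Fetal liver markers summed to only 25.4, 36.9 and 42.7 FPKM in KOAC10-5, KOAC10-7 and KOAC10-2, against 416 to 774 FPKM in the other 4 embryos, in a split that crosses the genotypes. Of these 8 markers, 1 was lower in KO embryos at an unadjusted p under 0.05, beside 6.19% of all genes. It was Ttr, at 14.4, 15.3 and 15.1 FPKM against 46.4, 32.3, 53.1 and 35.3 FPKM (-1.40 ± 0.17; adjusted p = 0.0891, limma). The part of these tissues in the shift was not tested beyond a fit with Afp, a liver marker, as a covariate. In that fit 71 of 83 nuclear members were negative (median -0.06), against 70 (median -0.05) without the covariate. At an unadjusted p under 0.05, 6 nuclear members were lower in it (7.23%, beside 6.69% of all genes).

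**Figure D2:**
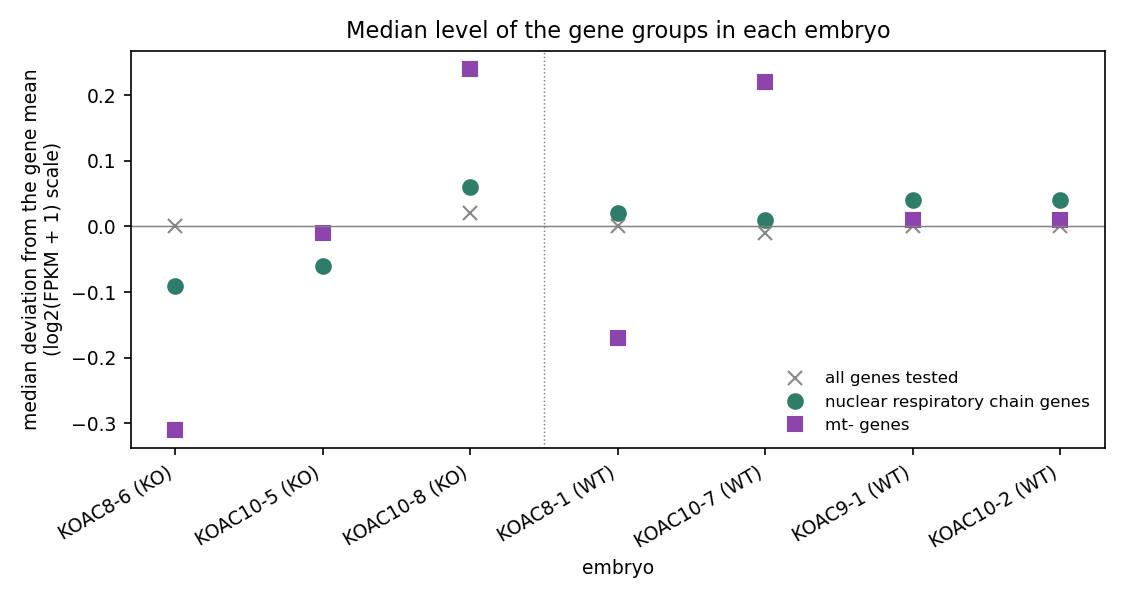
Median deviation from the mean of each gene (log2(FPKM + 1) scale) of all genes tested, the 83 nuclear members and the 13 mt- genes in each embryo. KOAC8-6 is the lowest for both groups of respiratory genes (-0.09 and -0.31) and KOAC10-8 the highest (0.06 and 0.24), while all genes stay between -0.01 and 0.02.

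In complex I, the members that stood apart were small accessory subunits. Ndufb1-ps had 64.1, 57.4 and 62.7 FPKM in KO embryos and 69.2, 72.1, 70.5 and 71.3 FPKM in WT embryos. The KO mean of 61.4 ± 3.53 (SD, n = 3) was 86.8% of the WT mean of 70.7 ± 1.22 (SD, n = 4), and the groups did not overlap (log2 fold change -0.20 ± 0.05; adjusted p = 0.286, limma). It had the smallest adjusted p of complex I, together with a tight WT group.

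Ndufb9, an accessory subunit of the LYR family in the far end of the membrane arm, had 129, 130 and 135 FPKM against 138, 147, 146 and 145 FPKM (log2 fold change -0.13 ± 0.04; adjusted p = 0.369, limma). Ndufb2, of the same arm, had 113, 117 and 105 FPKM against 125, 131, 114 and 130 FPKM. Its fold change was -0.16 ± 0.06 on the log2 scale (adjusted p = 0.425, limma), and the groups overlapped through the WT embryo KOAC9-1. Ndufb8, whose promoter holds the YY1 letters, had 221, 218 and 218 FPKM against 231, 239, 223 and 243 FPKM and narrowly did not overlap (-0.10 ± 0.05).

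Ndufa1, a short membrane subunit encoded on the X chromosome, had 137, 165 and 164 FPKM in KO embryos and 170, 176, 182 and 178 FPKM in WT embryos. Its log2 fold change of -0.19 ± 0.07 (adjusted p = 0.420, limma) was drawn mostly from KOAC8-6. Ndufa11, a membrane arm subunit with the NRF1 letters shown above, had 117, 127 and 122 FPKM against 127, 131, 137 and 136 FPKM (-0.13 ± 0.05; adjusted p = 0.417, limma). Ndufa8, the other member shown with these letters, had 67.3, 70.5 and 72.3 FPKM against 74.6, 72.9, 79.0 and 76.6 FPKM (-0.11 ± 0.05). In these 3 genes the gap between the highest KO and the lowest WT embryo was narrow.

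The most negative fold change among the nuclear genes of complex I was that of Ndufa5, a subunit of the peripheral arm, at -0.27 ± 0.11 (108, 132 and 147 FPKM against 148, 147, 174 and 150 FPKM), and the KO embryo KOAC10-8 overlapped the WT embryos. Ndufa4 had the highest mean of the nuclear genes counted in complex I (314 FPKM; 278, 299 and 319 FPKM against 306, 335, 320 and 344 FPKM) and Ndufa4l2 the lowest (2.38 FPKM). Both carry complex I names, although Ndufa4 is now known as a subunit of complex IV. Ndufs3, a nuclear core subunit, was the steadiest nuclear gene of complex I and varied 1.08-fold over the 7 embryos, at 105, 106 and 114 FPKM against 109, 113, 110 and 112 FPKM.

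**Figure D3:**
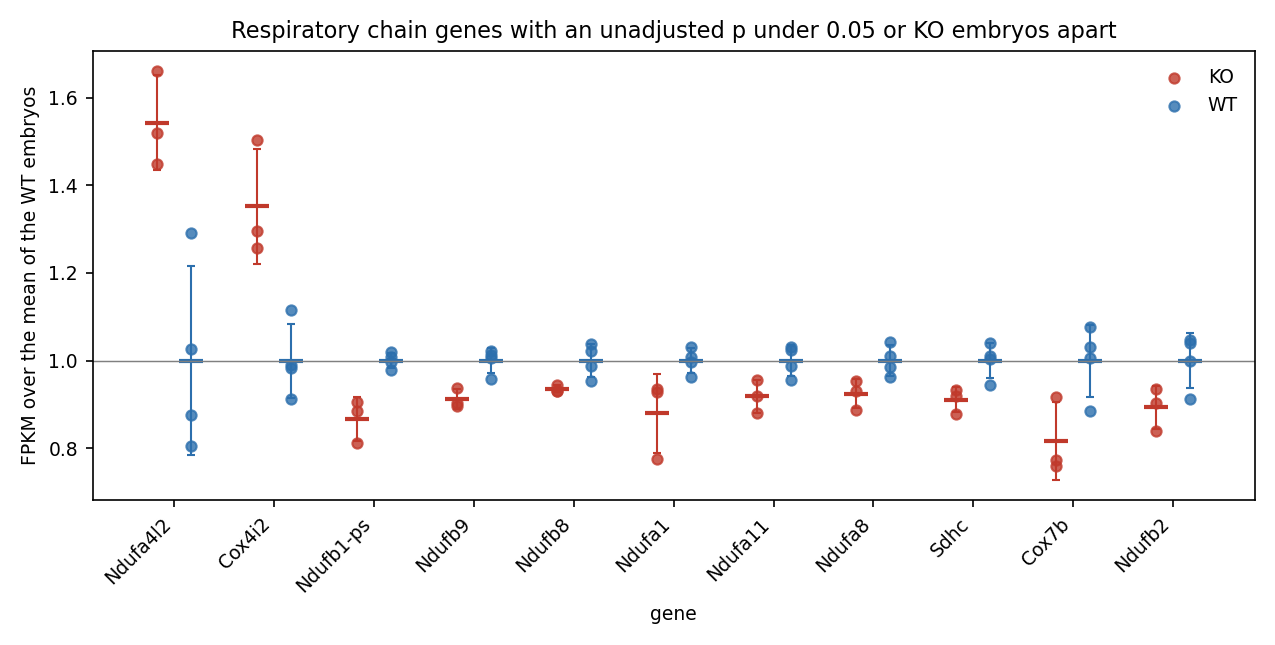
FPKM over the WT mean of the 11 members with an unadjusted p under 0.05 or with KO embryos outside the WT range. Points are embryos, horizontal bars group means and error bars the SD (KO n = 3, WT n = 4); Ndufa4l2 and Cox4i2 lie above the WT embryos, and Cox7b and Ndufb2 overlap them.

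Ndufa4l2 and Cox4i2, forms known to be induced by low oxygen, stood above the WT embryos in each KO embryo. Ndufa4l2 had 2.93, 2.79 and 3.20 FPKM against 1.55, 1.69, 2.49 and 1.98 FPKM (log2 fold change 0.45 ± 0.12; adjusted p = 0.307, limma). It made up 1.05%, 0.935% and 1.00% of the Ndufa4 level in KO embryos and 0.504% to 0.777% in WT embryos. Cox4i2, the alternative form of the first nuclear subunit of complex IV, had 5.29, 6.13 and 5.13 FPKM against 4.01, 4.55, 4.04 and 3.72 FPKM (0.36 ± 0.09; adjusted p = 0.286, limma). It made up 1.05% to 1.36% of the Cox4i1 level in KO embryos and 0.750% to 0.933% in WT embryos. Both stayed rare beside the common form.

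Of a list of 8 other genes known to be induced by low oxygen, 0 passed an adjusted p of 0.05 in limma. All 8 had a positive log2 fold change, with a median of 0.40. At an unadjusted p under 0.05, 4 of 8 were higher, beside 5.27% of all genes. Every KO embryo was above the WT embryos in 3 of 8 (37.5%, beside 5.61% of all genes). Their summed level was 256, 278 and 235 FPKM in KO embryos and 178, 161, 168 and 188 FPKM in WT embryos, so the groups did not overlap in the sum. Vegfa and Slc2a1 had the highest means of the list (79.4 and 55.3 FPKM) and weighed most in that sum. Single genes were less even, and in KOAC10-8, where Ndufa4l2 was highest, Bnip3 (27.8 FPKM) and Egln3 (3.70 FPKM) were at their lowest of all embryos. Vegfa, the vascular growth factor, was at 92.1, 94.6 and 114 FPKM against 59.8 to 67.6 FPKM (0.64 ± 0.08; adjusted p = 0.133, limma). The part of these genes in the levels of Ndufa4l2 and Cox4i2 was not tested.

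Complex II, succinate dehydrogenase, is the complex that also works in the citric acid cycle. Sdhc, a membrane anchor, had 146, 153 and 155 FPKM in KO embryos and 173, 167, 157 and 168 FPKM in WT embryos, without overlap (log2 fold change -0.13 ± 0.05; adjusted p = 0.400, limma). Sdhd, the other anchor, had 92.6, 89.1 and 102 FPKM against 95.8, 94.3, 86.8 and 88.7 FPKM (0.05 ± 0.06). The 2 anchors, which sit side by side in the membrane, thus had fold changes of opposite sign, and that of Sdhd was smaller than its error.

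The catalytic pair differed less than Sdhc. Sdha, which binds the flavin and oxidises succinate, had 91.8, 96.4 and 97.8 FPKM against 94.6, 97.1, 89.5 and 96.1 FPKM (0.02 ± 0.05). Sdhb, which carries the iron-sulphur clusters, had 121, 131 and 127 FPKM against 128, 134, 125 and 135 FPKM (-0.05 ± 0.05). In both, KO and WT embryos overlapped.

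The nuclear genes of complex III showed the narrowest range of fold changes among the nuclear groups, from -0.09 to 0.01. Uqcrh, the hinge protein that helps cytochrome c dock, was its highest nuclear member (433, 415 and 474 FPKM against 434, 443, 445 and 436 FPKM; log2 fold change 0.00 ± 0.06). Uqcrfs1, the Rieske iron-sulphur protein, was its lowest nuclear member (94.9, 93.3 and 95.6 FPKM against 94.8, 98.1, 90.7 and 92.8 FPKM) and had a fold change of 0.01 ± 0.04. Uqcr11, whose promoter is shown above, had the most negative value, with 209, 216 and 235 FPKM against 243, 225, 234 and 237 FPKM (-0.09 ± 0.06). None had an unadjusted p under 0.05 in limma.

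In complex IV, Cox7b, a small X-linked subunit, had the most negative fold change of all nuclear members. Its level was 319, 325 and 386 FPKM in KO embryos and 434, 372, 423 and 453 FPKM in WT embryos (log2 fold change -0.29 ± 0.10; adjusted p = 0.354, limma). KOAC10-8 overlapped the lowest WT embryo. Cox7c was the highest nuclear member of this complex by FPKM, at 679, 671 and 643 FPKM against 700, 654, 648 and 709 FPKM (-0.03 ± 0.06). Cox4i1 was at 463, 452 and 489 FPKM against 477, 488, 465 and 496 FPKM (-0.04 ± 0.05). By the authors' mean normalized count, Cox4i1 was above Cox7c (15950 against 6782).

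The forms of heart and skeletal muscle were low in these embryos. Cox6a2 had 3.45, 4.83 and 5.80 FPKM against 3.31, 3.55, 4.08 and 4.87 FPKM (0.19 ± 0.17), which was 0.896% to 1.52% of Cox6a1. Cox7a1 had 7.40, 7.46 and 8.36 FPKM against 8.03, 6.53, 7.32 and 10 FPKM (-0.03 ± 0.13), and was 2.80% to 4.34% of Cox7a2. Cox8b had 2.35, 3.91 and 2.21 FPKM against 2.68, 2.78, 4.27 and 3.45 FPKM (-0.18 ± 0.19). For each of them the KO and WT embryos overlapped.

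Over the same embryos all 12 tested markers of skeletal muscle were lower, with a median log2 fold change of -0.77 and a summed level of 135, 131 and 73.6 FPKM against 242, 225, 324 and 194 FPKM. Of 8 heart markers 7 were positive (median 0.23), at summed levels of 708, 793 and 878 FPKM against 678 to 792 FPKM. Their part in the levels of the muscle forms was not tested.

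Other alternative forms were compared in the same way. Cox6b2, a form best known from testis, reached 45.2, 42.4 and 53.1 FPKM against 51.3, 39.2, 42.9 and 41.7 FPKM (0.10 ± 0.11), which was 11.3% to 15.3% of Cox6b1. It was thus far higher than Cox4i2, Cox6a2, Cox7a1 and Cox8b. Cox7a2l, which helps join complexes III and IV into supercomplexes, had 171, 158 and 189 FPKM against 160, 159, 153 and 162 FPKM (0.12 ± 0.07).

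The common forms were steady beside these. Cox6a1 had 337, 352 and 381 FPKM in KO embryos and 369, 355, 373 and 373 FPKM in WT embryos (-0.05 ± 0.06), and Cox6b1 had 309, 318 and 352 FPKM against 336, 326, 381 and 317 FPKM (-0.06 ± 0.08). Cox7a2 had 206, 211 and 220 FPKM against 229, 233, 208 and 231 FPKM (-0.08 ± 0.06). Cox8a had 327, 341 and 378 FPKM against 370, 360, 372 and 343 FPKM (-0.05 ± 0.07). In all 4 genes the groups overlapped.

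Complex V had the highest nuclear gene of the set by FPKM, and the highest median level of the nuclear groups (353 FPKM). Atp5b, the catalytic beta subunit, was at 764, 742 and 829 FPKM in KO embryos and 795, 770, 804 and 792 FPKM in WT embryos (log2 fold change -0.02 ± 0.06). Atp5a1, which alternates with it in the catalytic head, was the steadiest of the 987 protein-coding genes with at least 100 FPKM, at 380 to 387 FPKM in KO and 384 to 395 FPKM in WT embryos, a 1.04-fold range. The lowest was Atp5d, the delta subunit of the central stalk, at 153 FPKM on average (141, 140 and 176 FPKM against 151, 142, 173 and 147 FPKM).

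The largest negative fold changes of complex V lay among small subunits. Atp5k, subunit e of the membrane part, had 369, 397 and 503 FPKM against 498, 464, 505 and 444 FPKM (-0.19 ± 0.11), and the KO embryo KOAC10-8 was above 3 of the WT embryos. Atp5f1, a subunit of the peripheral stalk, was the only positive nuclear member of the complex (0.04 ± 0.09; 179, 192 and 221 FPKM against 183, 203, 173 and 206 FPKM). The rotor ring of complex V is made of subunit c, which 3 genes encode with the same mature protein. Atp5g3 gave 54.1% to 57.0% of their summed FPKM, Atp5g1 22.0% to 25.2% and Atp5g2 19.8% to 22.9%, with KO and WT embryos overlapping in each share. By level, Atp5g3 had 386, 421 and 456 FPKM against 422, 449, 433 and 434 FPKM (-0.05 ± 0.07). Atp5g1 had 159, 167 and 183 FPKM against 185, 175, 202 and 172 FPKM (-0.11 ± 0.08), and Atp5g2 had 134, 151 and 190 FPKM against 154, 171, 165 and 156 FPKM (-0.04 ± 0.11). Gm10175, a pseudogene copy of part of Atp5g2, was at 170 to 212 FPKM. Reads from the shared part cannot be assigned to one of them by sequence, so the 3 shares carry this limit. With the estimated counts of both summed, the log2 fold change of Atp5g2 was 0.07.

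As a group, the mt- genes had a higher and more variable level than the nuclear members, with a median FPKM of 2076 against 147. Their ratio of the highest to the lowest embryo had a median of 1.57 and was over 1.4 in 10 of 13, against a median of 1.19 in the 78 nuclear members with at least 10 FPKM, of which 5 were over 1.4. Of the estimated counts of an embryo, 1.24%, 1.66% and 1.82% were on mt- protein genes in KO embryos and 1.45%, 1.88%, 1.56% and 1.61% in WT embryos. KOAC8-6 was the lowest embryo in 12 of 13 mt- genes, KOAC10-8 the highest in 7 and the WT embryo KOAC10-7 the highest in 5. The KO embryos thus spanned nearly the whole range. The median 95% interval of an mt- fold change was 0.38 to either side on the log2 scale, against 0.16 for a nuclear gene.

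**Figure D4:**
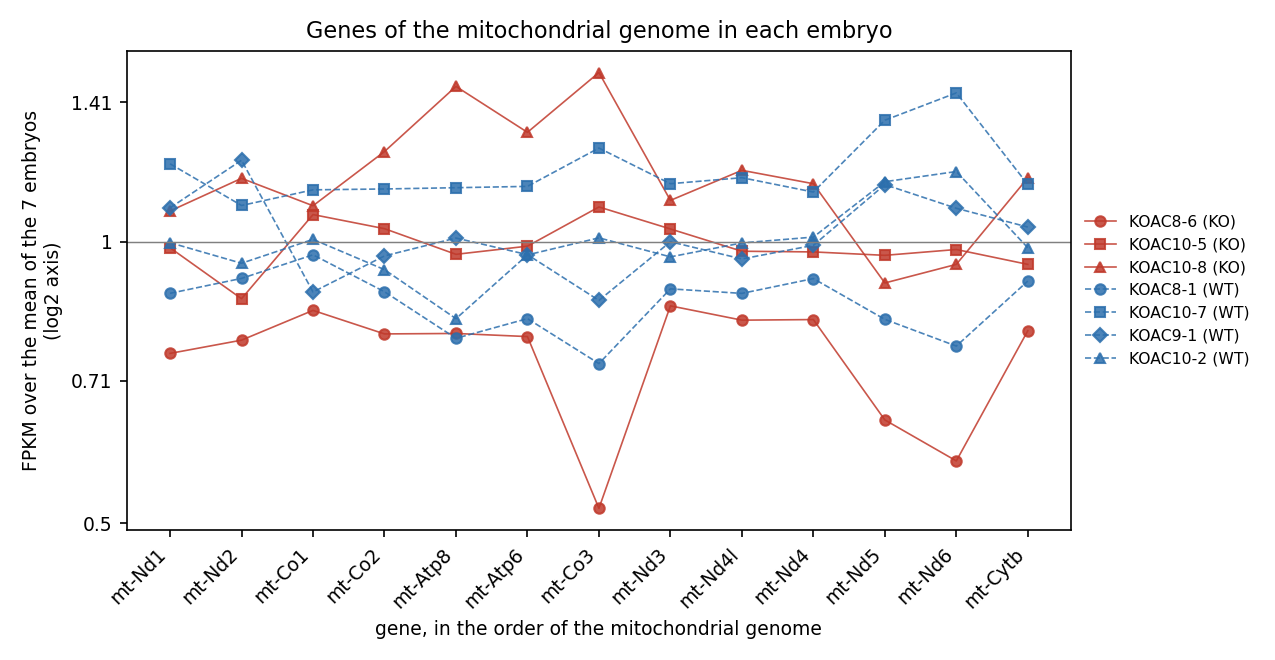
FPKM of the 13 mt- protein genes in each embryo, divided by the mean of the gene over the 7 embryos (log2 axis), in the order of the mitochondrial genome. Lines join genes of one embryo; KOAC8-6 is the lowest in 12 of 13, and mt-Co3 has the widest range (2.92-fold).

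Among complex I genes, mt-Nd5 and mt-Nd6, the neighbours at the far end of the gene order, had the most negative fold changes. mt-Nd5 had 466, 699 and 653 FPKM in KO embryos and 597, 975, 832 and 838 FPKM in WT embryos (log2 fold change -0.42 ± 0.20; adjusted p = 0.476, limma). mt-Nd6 had 578, 973 and 938 FPKM against 767, 1431, 1077 and 1179 FPKM (-0.43 ± 0.26; adjusted p = 0.549, limma). In both genes KO and WT embryos overlapped through the WT embryo KOAC8-1. Within series 8 and within series 10, each KO embryo was below each WT embryo in both genes. In series 8, with 1 embryo of each genotype, 12 of 13 mt- genes were lower in the KO embryo. The share of all genes with this order in both series was not counted. With the series as a block, mt-Nd5 and mt-Nd6 were the 2 mt- genes with an unadjusted p under 0.05 (beside 4.65% of all genes lower). The same 2 were found without KOAC8-1 (beside 5.57%), and neither passed an adjusted p of 0.05 in those fits.

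mt-Nd6 is the only protein gene on the minus strand, and mt-Nd5 and mt-Nd6 overlap by 14 bases. The library kit does not mark strand, so reads from the strand opposite a gene are counted with it. Over mt-Co1 in the same embryo, mt-Nd6 was at a ratio of FPKM of 0.156, 0.207 and 0.196 in KO embryos and 0.180, 0.287, 0.278 and 0.267 in WT embryos. mt-Te, a transfer RNA gene next to mt-Nd6 on its strand, followed it, with 469, 695 and 732 FPKM against 606, 1034, 883 and 978 FPKM.

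The other mt- genes of complex I differed less between the groups. mt-Nd1 had 1097, 1423 and 1558 FPKM against 1272, 1750, 1570 and 1441 FPKM (-0.16 ± 0.15), and mt-Nd2 had 633, 701 and 943 FPKM against 737, 882, 986 and 765 FPKM (-0.16 ± 0.16). mt-Nd4 had 1092, 1290 and 1526 FPKM against 1208, 1495, 1311 and 1338 FPKM (-0.05 ± 0.13). mt-Nd4l, which shares a transcript and 7 bases with mt-Nd4, had 3183, 3772 and 4604 FPKM against 3400, 4521, 3701 and 3850 FPKM (-0.01 ± 0.16) and kept a ratio of 2.82 to 3.02 to it in all embryos. mt-Nd3 had 772, 933 and 1001 FPKM against 805, 1043, 904 and 871 FPKM (-0.01 ± 0.12).

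mt-Cytb, the single mitochondrial subunit of complex III, had 1667, 1963 and 2429 FPKM against 1884, 2390, 2152 and 2045 FPKM (-0.08 ± 0.15). mt-Co1, the catalytic core of complex IV, had 3708, 4695 and 4798 FPKM against 4252, 4990, 3880 and 4417 FPKM (0.00 ± 0.14). mt-Co2, which receives electrons from cytochrome c, had 3673, 4760 and 5756 FPKM against 4075, 5249, 4451 and 4303 FPKM (0.05 ± 0.17). mt-Co1 was the steadiest mt- gene, with a 1.35-fold range.

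mt-Co3 had the widest range, at 1676, 3521 and 4903 FPKM in KO embryos and 2394, 4071, 2797 and 3263 FPKM in WT embryos (-0.00 ± 0.37). Gm28437, an unprocessed pseudogene on chromosome 1, shares 99.9% of the 50-base stretches of mt-Co3, and reads of that kind cannot be assigned to one of them by sequence. Its level was 905, 35.9 and 0 FPKM in KO embryos and 367, 14.2, 747 and 97.3 FPKM in WT embryos. It was high where mt-Co3 was low. With the estimated counts of both summed, the range narrowed from 2.92-fold to 1.90-fold, and the log2 fold change of the sum was 0.06.

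**Figure D5:**
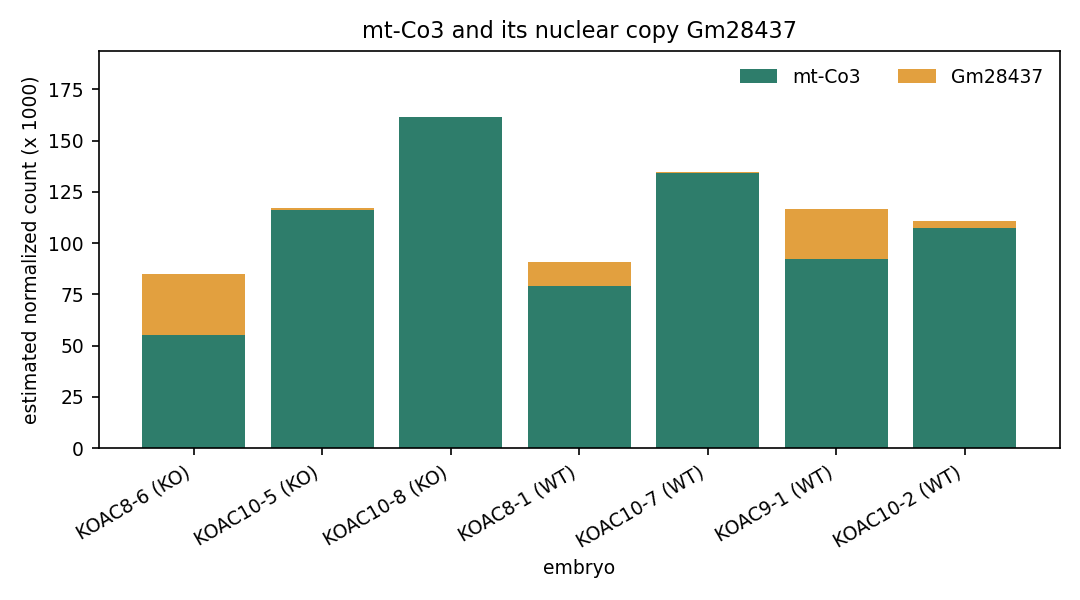
Estimated normalized counts of mt-Co3 and of its nuclear copy Gm28437, stacked, in each embryo. The copy takes 29626 counts in KOAC8-6 and 24462 in KOAC9-1 and none in KOAC10-8, where mt-Co3 is highest.

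For mt-Nd3, Gm28438 shares 98% of the stretches and was at 75.3 to 203 FPKM, and for mt-Co1, Gm29216 shares 28.7% and was at 1030 to 1520 FPKM. Stretches of mt-Co2 (99.5%, Gm28661), mt-Atp6 (99.5%, Gm10925), mt-Nd4l (98.8%, Gm10222) and mt-Nd4 (62.2%, Gm28439) are shared too. These copies had no deposited FPKM and could not be summed, so the values of these genes carry the same limit. Nuclear members have such copies too. Gm14539, a copy of part of Atp5md, was at 0 FPKM in 2 WT embryos and at up to 303 FPKM in the other embryos, and Gm6969, a partial copy of Cox7a2l, ranged from 0 to 236 FPKM. Summing copies with their members left 0 members with an adjusted p under 0.05.

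In complex V, mt-Atp6, which forms the proton path, had 2522, 3151 and 4171 FPKM against 2636, 3651, 3086 and 3084 FPKM (0.05 ± 0.19). mt-Atp8, a small subunit of the membrane part, had 21428, 26040 and 39379 FPKM against 21174, 30684, 27106 and 22223 FPKM (0.16 ± 0.27). Its FPKM cannot be set beside that of other genes. The deposited scale treats mt-Atp8 as 11 bases long, against an annotated 204 bases, and likewise mt-Nd4l as 54 of 297 bases and mt-Nd3 as 108 of 348. Comparisons between embryos within a gene keep this factor constant only if it was the same in each embryo. Short nuclear members are scaled in this way too, such as Cox7c (165 bases, longest transcript 709), Cox7a1 (190, longest 485) and Cox8b (121, longest 360). Rankings of level and percentages between genes are therefore those of FPKM only.

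The sequence of mt-Atp8 is shown because its end is also the start of mt-Atp6: chrM:7766-7969, plus strand, GRCm38, read from the annotated transcript. Capitals mark the 43 bases that both genes share.
mt-Atp8: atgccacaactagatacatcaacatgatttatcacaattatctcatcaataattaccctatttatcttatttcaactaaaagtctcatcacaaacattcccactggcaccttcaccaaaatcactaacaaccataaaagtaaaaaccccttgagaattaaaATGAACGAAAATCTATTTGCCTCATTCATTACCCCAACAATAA

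Genes that build or serve the chain were read as fixed lists, and 0 of their members passed an adjusted p of 0.05. Of 78 mitochondrial ribosomal protein genes, 39 were negative and 39 positive, with a median of -0.00, so the small shift of the subunits was not seen there as a count. Assembly factors had medians of 0.03 (complex I, 15 genes), -0.05 (II, 4), 0.01 (III, 6), 0.02 (IV, 22) and -0.04 (V, 5). Of the 22 listed for complex IV, 1 was lower and 1 higher at an unadjusted p under 0.05 (4.55% each, beside 6.19% and 5.27% of all genes). Surf1, the lower one, was at 29.9, 31.4 and 33.5 FPKM against 36.0, 35.1, 38.7 and 33.6 FPKM (-0.18 ± 0.06; adjusted p = 0.391, limma). Fastkd1, the higher one, was at 9.03, 8.98 and 9.17 FPKM against 7.97, 7.49, 6.59 and 8.15 FPKM (0.24 ± 0.08; adjusted p = 0.355, limma). Of 13 citric acid cycle genes 8 were positive (median 0.01).

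Of 26 tested genes of mitochondrial transcription, RNA handling and biogenesis, 20 were positive (median 0.04). At an unadjusted p under 0.05, 2 were higher (7.69%, near the 5.27% of all genes). Twnk, the helicase that copies mitochondrial DNA, had 14.5, 14.0 and 15.3 FPKM against 12.9, 12.7, 12.6 and 12.9 FPKM (0.18 ± 0.05; adjusted p = 0.318, limma). Gabpb1, a subunit of the ETS factor GABP, had 39.0, 36.6 and 38.4 FPKM against 35.5, 34.8, 33.4 and 35.9 FPKM (0.12 ± 0.05; adjusted p = 0.420, limma). Nrf1 itself was at 32.3, 28.3 and 32.2 FPKM against 30.5, 28.8, 27.2 and 30.9 FPKM (0.07 ± 0.07), with overlapping groups.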

How the data were processed

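Libraries were made with the TruSeq RNA v2 kit from total RNA of 3 KO and 4 WT embryos. The authors deposited 1 table with an FPKM value per gene and embryo; the submitters' processing notes name Salmon, DESeq2, MultiQC and GRCm38, with no role or version. The authors also deposited a mean signal per gene, the mean normalized count over the embryos, and columns of their own comparison (log2 fold change, its standard error, p-value and adjusted p-value), which were not used. Depth and normalized counts per embryo were estimated from the steps between low FPKM values and the authors' mean. Of the low values, 51.1% to 76.4% lay within 0.05 of a whole step, so the values were not treated as counts and the estimates are approximate. The length implied by FPKM was scaled on 301 single-transcript genes of at least 3000 bases.

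Genes averaging 1 FPKM or more over the embryos were fitted together on log2(FPKM + 1) with limma 3.58.1 in R 4.3.3 (lmFit, eBayes with a trend, no covariate) and adjusted by the Benjamini-Hochberg method at 0.05. Fold changes on this scale understate changes of low genes. Slmap was also compared by an exact permutation test. The fit was tested on simulated data. Embryos are separate animals, and p-values measure the spread between them. Positions and transcripts came from GENCODE M21 (GRCm38) and promoters from RefSeq. A near-copy is a listed gene of which at least 50% of the 50-base stretches are also in a member.

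Genes named are Slmap, the mt- genes, Sdha to Sdhd, the highest and lowest nuclear member and the largest positive and negative fold change of each complex, members with an unadjusted p under 0.05 or KO values outside the WT range, and alternative forms. Other genes were chosen after their values were seen. The members and lists were chosen with earlier results of these data known. Alternatives were other pseudocounts and filters, rescaling, median-ratio and quantile normalization, the series as a block, Afp as a covariate, a robust fit and leaving out each embryo; summing near-copies was chosen after seeing the data.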

Additional observations from a re-analysis of the deposited data

Results flagged for a closer look

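In 6 of the 97 results examined, 1 of the 4 WT embryos lay far from the other WT embryos, with a gap over the range above Dixon's critical value for 4 samples. Chance gives about 1 in 20, or 4.85 of 97. KOAC9-1 was the distant embryo in 5. It was the highest in Ndufb10 (ratio 0.926; 108 FPKM against 94.0 to 95.1), Ndufa5 (0.909; 174 against 147 to 150) and Atp5o (0.832; 332 against 278 to 287). It was the lowest in Atp5l (0.960; 198 FPKM against 258 to 261) and Cox7a2 (0.842; 208 against 229 to 233). KOAC10-7 was the lowest in Ndufa12 (0.891; 123 FPKM against 147 to 150), a gene with the partial copy Gm15920 at 48.4 FPKM in that embryo. The causes were not tested.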

How the results depend on the processing

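No member passed an adjusted p of 0.05 under any of the 19 alternatives, and Slmap stayed lower in KO embryos (-0.67 to -0.51 on the log2 scale, adjusted p 0.0905 to 0.552, limma). Nuclear members lower at an unadjusted p under 0.05 numbered 7 (8.43%, beside 6.19% of all genes). They numbered 14 after rescaling to a common FPKM sum (16.9%, beside 5.30%), 12 without genes of the mitochondrial genome in that sum (14.5%, beside 5.46%), 15 after quantile normalization (18.1%, beside 6.44%), and 1 (without KOAC8-6) to 22 (without KOAC10-8) when an embryo was left out. Leaving out KOAC10-5 gave 4 (4.82%, beside 8.55%), KOAC8-1 4 (4.82%, beside 5.57%), KOAC10-7 3 (3.61%, beside 5.11%) and KOAC10-2 2 (2.41%, beside 5.40%). Negative nuclear members numbered 54 to 76 and their median ran from -0.10 to -0.03 over these, and the mt- median from -0.17 to 0.10. The cause was not tested.

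With the series as a replicate block, 9 nuclear members were lower at that threshold (beside 4.65% of all genes), 2 mt- genes (mt-Nd5 and mt-Nd6) had an unadjusted p under 0.05, and the medians were -0.05 (nuclear) and -0.06 (mt-). Correlations of deviations between KO and WT embryos ran from -0.09 to 0.29 within a series and from -0.23 to 0.19 between series. The highest, 0.28 and 0.29, were both within a series. The ranges overlap, and these few pairs cannot show whether the series pairs the embryos.

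Fold changes near 0 changed sign. With the block, Atp5f1 was -0.00, Atp5d 0.04, Sdha -0.01, Uqcrfs1 -0.01 and mt-Co1 -0.06. After rescaling, with or without mitochondrial genes, Uqcrfs1 was -0.00, Uqcrh -0.01 and mt-Co1 -0.01. After quantile normalization, Sdha was -0.01, Uqcrfs1 -0.02, Uqcrh -0.01, mt-Co3 0.08 and mt-Nd4l 0.07. With Afp as a covariate, Uqcrh was -0.01, mt-Co3 0.09, mt-Nd3 0.02 and mt-Nd4l 0.02. With near-copies summed, Atp5g2 was 0.07, mt-Co1 -0.00 and mt-Co3 0.06.

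Leaving out each embryo gave ranges that crossed 0 for Sdhd (-0.01 to 0.09), Sdha (-0.01 to 0.04), Atp5f1 (-0.04 to 0.11), Atp5d (-0.12 to 0.04), Atp5g3 (-0.11 to 0.01), Atp5b (-0.07 to 0.01), Atp5g2 (-0.18 to 0.07), Uqcrfs1 (-0.01 to 0.03), Uqcrh (-0.05 to 0.04) and Cox7a1 (-0.11 to 0.08). The same held for mt-Co1 (-0.07 to 0.12), mt-Co2 (-0.11 to 0.22), mt-Co3 (-0.34 to 0.44), mt-Atp8 (-0.08 to 0.36), mt-Atp6 (-0.13 to 0.23), mt-Nd3 (-0.09 to 0.10), mt-Nd4 (-0.17 to 0.07), mt-Nd4l (-0.15 to 0.12) and mt-Cytb (-0.22 to 0.05). Ndufa4l2 (0.39 to 0.64) and Cox4i2 (0.29 to 0.43) stayed positive in 18 alternatives each and had no value at a minimum mean of 5 FPKM.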
